A study of Mus musculus with 15 samples.

Results

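The HOXA cluster genes Hoxa3, Hoxa5, Hoxa6, Hoxa7, Hoxa9, Hoxa10 and Hoxa11, with their partner genes Meis1 and Pbx3, were followed by RNA-seq through 5 groups of mouse leukemia cells. These 9 genes were chosen by symbol from the 53379 genes of the table, and all 9 were among the 12673 genes that passed the filter on low values. All groups were fetal liver cells transformed with a retrovirus that encodes MLL-ENL, a leukemia fusion protein, and all were grown with 10 ng/ml IL-3. The cells came from clones named C1 and C2, which the study derived from different mice. C1 WT and C2 WT cells kept both Cebpa and Cebpb, whose alleles were floxed (fl/fl), and no exogenous gene was listed for them. C1 dKO and C2 dKO cells had lost both genes after Cre treatment and carried a GFP vector. C1 LAPS cells had the same deletions and carried GFP and the rat protein LAP*, a full-length form of C/EBPβ. Each group had 3 RNA samples, which were isolated from the same line at different time points, so p-values measure the spread between such samples and not between animals. The dKO lines were clones that survived a deletion which most cells did not, and the deletion, the GFP vector and the choice of a surviving clone cannot be told apart in dKO against WT cells.

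HOX genes encode homeodomain transcription factors that lie in clusters and give cells positional identity in the embryo. In blood, the HOXA genes are used by stem and early progenitor cells and are silenced as cells mature. MLL fusion proteins bind the cluster and keep it transcribed, and HOXA9 together with MEIS1, a homeodomain protein of the TALE class, maintains self-renewal of myeloid progenitors. PBX3, another TALE protein, binds DNA beside HOX proteins and stabilises MEIS1. C/EBPα and C/EBPβ, the products of Cebpa and Cebpb, are leucine zipper factors that drive myeloid differentiation. The comparison of dKO with WT cells thus asks how the core MLL-ENL target genes stood after both factors had been removed, and the LAPS cells ask how they stood after 1 of them had been put back.

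The 7 HOXA members lie close together on the minus strand of mouse chromosome 6 (mm10, GENCODE vM21), from Hoxa3 (52169062 to 52213336) through Hoxa9 (52223100 to 52231089) and Hoxa10 (52231197 to 52240854) to Hoxa11 (52242106 to 52245810). The annotated span of Hoxa3 contains Hoxa5 and Hoxa6, and also Hoxa4, which is not a member. Meis1 lies on chromosome 11 from 18879817 to 19018985 and Pbx3 on chromosome 2 from 34171457 to 34373142, both on the minus strand. Exons of 4 genes overlap on the opposite strand with antisense genes, with 25.4% of the exon bases of Hoxa3, 20.4% of those of Hoxa7, 35% of those of Hoxa11 and 8.51% of those of Meis1 shared. Meis1 also shares 9.77%, Hoxa3 8.01% and Hoxa9 1.52% of its exon bases with a gene on the same strand. The strand setting of the counting is not given in the sources used here, so reads of these overlaps are uncertain. Hoxa5, Hoxa6, Hoxa10 and Pbx3 share no exon base with another gene.

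The bases before the start sites of Hoxa9, Hoxa10 and Hoxa11 are shown because Hoxa9 was the most strongly expressed member in WT cells, Hoxa10 fell in dKO cells of both clones and Hoxa11 was read in C2 but hardly in C1. They are RefSeq promoter sequences of GRCm38.p6, read 5′ to 3′ on the minus strand of chromosome 6, and capitals mark a match to a searched motif. Hoxa10 has 2 start sites in that table, and its inner start lies inside the gene body. By GENCODE vM21 the bases shown for Hoxa9 lie in an intron of its longer transcripts, and those for Hoxa11 overlap exons of the antisense gene Hoxa11os.
Hoxa9 (chr6:52227371-52227620): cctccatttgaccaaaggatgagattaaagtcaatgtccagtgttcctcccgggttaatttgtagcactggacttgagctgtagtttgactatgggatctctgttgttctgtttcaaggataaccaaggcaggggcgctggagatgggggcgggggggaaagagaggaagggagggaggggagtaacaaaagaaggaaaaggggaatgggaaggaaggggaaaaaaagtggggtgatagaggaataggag
Hoxa10, outer start (chr6:52240855-52241104): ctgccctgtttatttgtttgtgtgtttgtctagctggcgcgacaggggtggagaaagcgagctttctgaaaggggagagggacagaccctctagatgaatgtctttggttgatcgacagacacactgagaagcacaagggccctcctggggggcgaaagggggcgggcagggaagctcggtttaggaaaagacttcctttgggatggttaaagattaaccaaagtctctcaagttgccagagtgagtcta
Hoxa10, inner start (chr6:52234938-52235189): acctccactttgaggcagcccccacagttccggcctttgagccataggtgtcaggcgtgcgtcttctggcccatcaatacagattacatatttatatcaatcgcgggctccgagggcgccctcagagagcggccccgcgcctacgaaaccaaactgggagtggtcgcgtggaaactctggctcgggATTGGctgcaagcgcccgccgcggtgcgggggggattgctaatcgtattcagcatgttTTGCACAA
Hoxa11 (chr6:52245811-52246060): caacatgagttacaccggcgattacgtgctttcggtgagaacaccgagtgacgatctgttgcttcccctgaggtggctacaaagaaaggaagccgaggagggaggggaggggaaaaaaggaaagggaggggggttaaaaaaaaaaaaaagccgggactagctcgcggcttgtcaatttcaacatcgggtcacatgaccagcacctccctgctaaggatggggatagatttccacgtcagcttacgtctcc

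Promoters of 300 bases, 250 before and 50 after a start, were found for 8 members, 9 promoters in all. The letters TTGCNNAA of a C/EBP site, searched on both strands, occurred in 1 of these 9, at the inner start of Hoxa10, where the match TTGCACAA begins 6 bases before the start and crosses it. These letters were held by 10.8% of all 32851 RefSeq promoters. CCAAT, which does not overlap that match, occurred in 4 of the 9 (Hoxa5, Hoxa6, the inner start of Hoxa10 and Meis1) and in 37.4% of all promoters. TGACAG, the letters of a MEIS site, occurred in the Hoxa3 promoter alone and in 19.2% of all promoters, and TGATNNAT, a HOX-PBX composite, in none of the 9 and in 8.85% of all. These are matches of letters in a short window and not measurements of binding. The promoters of Hoxa5 and Hoxa6 held 29 and 26 CpG, that of Hoxa9 held 4, and the median over all promoters was 7.

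The libraries held 9212237 to 13613500 reads on genes. Cebpa had 903 to 2267 normalized reads in the WT libraries and 0 in every dKO library, and Cebpb had 1353 to 1634 in WT and 0 in dKO libraries, so both deletions matched the labels. C1 LAPS libraries, whose transgene is rat, had 2538 to 4216 normalized reads counted to Cebpb and at most 0.92 to Cebpa. Normalized reads are read counts divided by 1 size factor per library. The myeloid progenitor markers (8 genes, among them Mpo, Elane and Kit) were all detected. They summed to 87927 to 92843 normalized reads in C1 WT, 166259 to 191008 in C1 dKO and 157212 to 191318 in C1 LAPS libraries. In C2 they summed to 78226 to 84198 in WT and 135575 to 156716 in dKO libraries. In dKO cells of each clone 6 of the 8 were called higher by limma. Of all tested genes 17.1% were called higher in C1 and 17.4% in C2. Of the fetal liver's other lineages, the hepatocyte markers Alb, Apoa1, Ttr and Serpina1a, the erythroid markers Hba-a2 and Alas2 and the lymphoid markers Cd4, Cd8a and Rag1 were listed at 0 in all 15 libraries. The summed 6 measured erythroid, 6 hepatocyte and 9 lymphoid markers reached at most 18.3, 169 and 58.9 normalized reads in a library. Most of the hepatocyte sum was Afp, a fetal liver protein gene, which fell from 31.9 to 8.49 normalized reads in C1 dKO cells (adjusted p = 3.9e-05, limma) and from 129.8 to 78.7 in C2 dKO cells (adjusted p = 0.042). Most of the lymphoid sum in C1 WT cells was Il7r, the interleukin 7 receptor gene, which fell from 49.6 to 0.94 in C1 dKO cells (adjusted p = 5.8e-06) and had 1.25 and 0.717 in C2 (adjusted p = 0.6).

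The 8 eosinophil markers moved with the deletion in C1, from 135 to 238 summed normalized reads in C1 WT libraries to 9081 to 17647 in C1 dKO and 1147 to 2244 in C1 LAPS libraries. In C2 they summed to 22 to 32.1 in WT and 276 to 385 in dKO libraries. The 8 mast cell and basophil markers summed to 98.8 to 134, 2642 to 3043 and 887 to 1135 in C1 WT, dKO and LAPS libraries, and to 103 to 129 and 537 to 778 in C2 WT and dKO libraries, with Tpsb2 and Tpsab1 at 0 throughout. Most of the latter rise was Cpa3, at 0.99 and 568 normalized reads in C2 WT and dKO cells, while Ms4a2 of the same list fell from 61.8 to 8.1 (adjusted p = 5.9e-06, limma). Of the eosinophil markers Ear2 fell in C2, from 6.77 to 0.647 (adjusted p = 0.011, limma), and 6 of the 8 rose. Of all tested genes 17.4% were called higher and 20.1% lower in C2 dKO cells. In such bulk samples fewer cells of a type and less RNA per cell cannot be told apart. The part of these cell types, and of the higher myeloid progenitor markers, in the differences below was not tested.

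Hoxa9 was the most strongly expressed member in C1 WT and C2 WT cells. Per kilobase of exon, which allows genes to be compared with each other, C1 WT cells had 408 normalized reads for Hoxa9, 360.4 for Hoxa7, 179 for Hoxa10 and 104 for Meis1. Hoxa5 (50.9), Hoxa6 (30.9), Pbx3 (14.3), Hoxa3 (6.11) and Hoxa11 (1.11) followed. C2 WT cells had another order, with 668 for Hoxa9, 492 for Hoxa10, 311 for Hoxa11, 188 for Hoxa7 and 110.1 for Hoxa5, then Meis1 (91.4), Hoxa6 (55.8), Pbx3 (20.4) and Hoxa3 (18.5). Hoxa9 stood above 86.6% and 92.7% of the tested genes on this scale in C1 WT and C2 WT cells. Dividing by the longest transcript in place of all exons gave 706 for Hoxa9, 510.4 for Hoxa7 and 229 for Hoxa10 in C1 WT cells, the same order. In C2 WT cells it put Meis1 (128) above Hoxa5 (110.1).

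**Figure D1:**
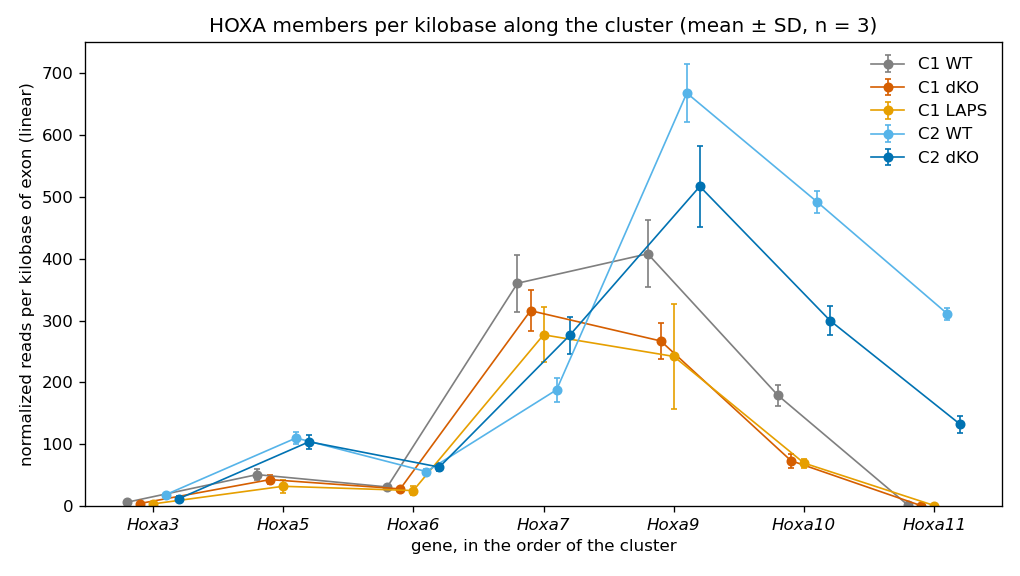
Normalized reads per kilobase of exon (y, linear scale) for the 7 HOXA members in the order of the cluster (x), as mean ± SD of 3 libraries for each of the 5 groups. The C1 profiles end after Hoxa10, with 1.11 per kilobase for Hoxa11 in C1 WT cells, whereas the C2 profiles extend to Hoxa11, with 311 in C2 WT cells.

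**Figure D2:**
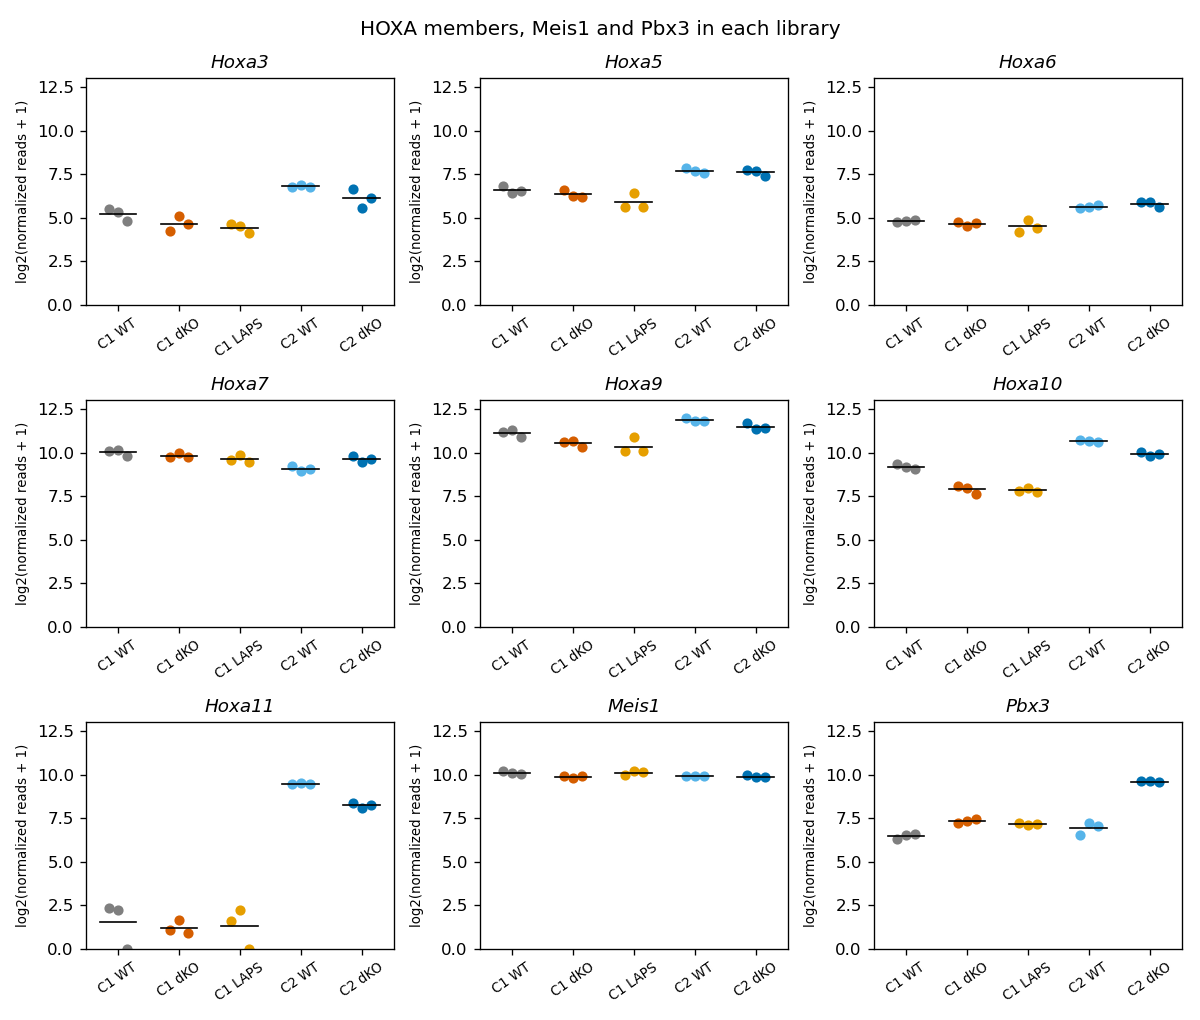
Every library's log2(normalized reads + 1) (y) for the 9 genes in the 5 groups (x). Points are libraries and lines are means. Hoxa10 was lower in dKO than in WT libraries of both clones and Pbx3 was higher, Hoxa11 had at most 4.01 normalized reads in any C1 library, and Meis1 lay between 900.0 and 1173 normalized reads throughout.

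Hoxa10 fell and Pbx3 rose after the loss of Cebpa and Cebpb in C1. Hoxa9 fell as well, Meis1 fell slightly, and the other 5 members did not pass the test. Of the 9 members 1 was called higher and 3 were called lower in C1 dKO against C1 WT cells, where 17.1% of all tested genes were called higher and 19.9% lower. The median log2 change was -0.24 over the members and -0.01 over all tested genes.

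Hoxa10, a posterior HOX factor that holds progenitors in an immature state, had 646, 579 and 535 normalized reads in the C1 WT libraries and 271, 249.6 and 199 in the C1 dKO libraries. All dKO libraries lay below all WT libraries. The means were 587 ± 56.1 and 239.9 ± 36.6 (SD, n = 3), and the log2 change was -1.29 ± 0.11 (SE, adjusted p = 2.8e-07, limma).

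Hoxa9, which marks MLL-rearranged leukemia, had 2372, 2518 and 1938 normalized reads in the C1 WT libraries and 1547, 1618 and 1302 in the C1 dKO libraries. The groups did not overlap, and the dKO mean was 0.654 times the WT mean. The log2 change was -0.61 ± 0.18 (SE, adjusted p = 0.013, limma). It held in all 9 alternatives that used every library (adjusted p of 0.0035 to 0.034), but without C1 WT replicate 2 or without C1 dKO replicate 3 the adjusted p was 0.053 and 0.061.

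Meis1, the TALE cofactor of HOXA9, had 1173, 1075 and 1029 normalized reads in the C1 WT libraries and 973, 900.0 and 958 in the C1 dKO libraries. The groups did not overlap, but the distance was small, with a log2 change of -0.21 ± 0.07 (SE, adjusted p = 0.038, limma). This call was lost in 7 of the 9 alternatives, whose adjusted p ran from 0.036 to 0.17, among them edgeR (0.051) and DESeq2 (0.057). It was also lost without C1 WT replicate 1 or 2 and without C1 dKO replicate 2 or 3, with adjusted p of 0.17, 0.062, 0.13 and 0.068.

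Pbx3 had 77.6, 90.2 and 94.8 normalized reads in the C1 WT libraries and 148, 159 and 172 in the C1 dKO libraries. Every dKO library was higher than every WT library, and the log2 change was 0.87 ± 0.15 (SE, adjusted p = 0.00034, limma). The rise held in all 9 alternatives and without any single library.

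Hoxa7, close to Hoxa9 per kilobase of all exons in C1 WT cells, had 1097, 1128 and 884 normalized reads in the C1 WT libraries and 845, 1018 and 861 in the C1 dKO libraries. The groups overlapped, and the log2 change of -0.19 did not pass the test (95% interval from -0.46 to 0.09, adjusted p = 0.28, limma). Hoxa3 had 44.1, 39.7 and 26.5 normalized reads in C1 WT and 18.1, 32.5 and 23.8 in C1 dKO libraries (log2 change -0.56, adjusted p = 0.14). Hoxa5 had 114, 83 and 89.7 against 95.1, 73.4 and 72.4 (log2 change -0.24, adjusted p = 0.37). Hoxa6 had 25.4, 27.1 and 28.5 against 26.1, 22 and 24.7 (log2 change -0.15, adjusted p = 0.6). These 3 anterior members overlapped between C1 WT and C1 dKO libraries. Hoxa11 had 7 reads in the 3 C1 WT libraries together and 4 in the C1 dKO libraries, so a change was not detectable at this depth.

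**Figure D3:**
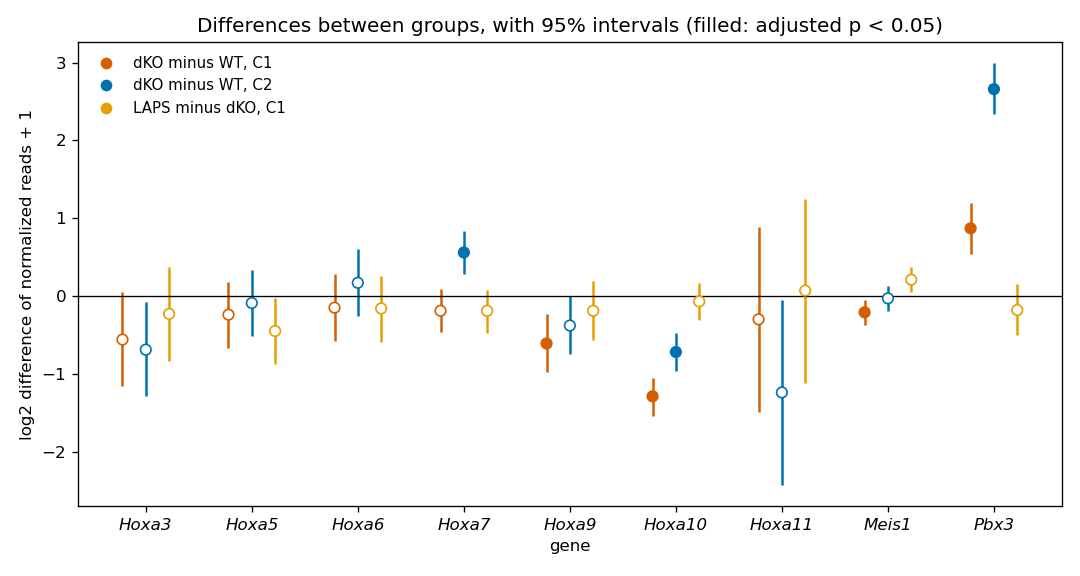
Log2 differences of normalized reads + 1 (y) for the 9 genes (x) in dKO against WT cells of C1, dKO against WT cells of C2 and LAPS against dKO cells of C1. Bars are 95% intervals and filled points passed an adjusted p of 0.05. Filled points stand for Hoxa10 below 0 and Pbx3 above 0 in both clones, for Hoxa9 and Meis1 in C1 alone and for Hoxa7 in C2 alone, and LAPS against dKO has none.

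In C2, Hoxa10 fell again and Pbx3 rose far more, and Hoxa7 rose. Of the 9 members 2 were called higher and 1 lower in C2 dKO against C2 WT cells, with 17.4% of all tested genes called higher and 20.1% lower. The members' median log2 change was -0.09, that of all tested genes -0.03.

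Hoxa10 had 1671, 1600.0 and 1556 normalized reads in the C2 WT libraries and 1063, 907 and 973 in the C2 dKO libraries. The groups were far apart, and the log2 change was -0.72 ± 0.11 (SE, adjusted p = 0.00013, limma). In both clones the fall of Hoxa10 held in all 9 alternatives and without any single library.

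Pbx3 had 90.6, 151 and 132 normalized reads in the C2 WT libraries and 792, 784 and 755 in the C2 dKO libraries. The dKO libraries were thus well above the WT libraries, with a mean 6.24 times as high and a log2 change of 2.66 ± 0.15 (SE, adjusted p = 2.7e-09, limma).

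Hoxa7 had 599, 489 and 531 normalized reads in the C2 WT libraries and 885, 713 and 785 in the C2 dKO libraries. All dKO libraries lay above all WT libraries, and the log2 change was 0.56 ± 0.13 (SE, adjusted p = 0.0028, limma). Its antisense neighbour Hoxaas3, which shares 586 exon bases with it, had 2.61 ± 0.46 and 2.83 ± 4.08 normalized reads in the same groups (SD, n = 3).

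Hoxa11, the most posterior member, had 690.1, 733 and 714 normalized reads in the C2 WT libraries and 333, 268 and 307 in the C2 dKO libraries. The groups did not overlap, and the dKO mean was 0.425 times the WT mean. The log2 change was -1.24 ± 0.56 (SE, adjusted p = 0.096, limma) where the spread was estimated over all 15 libraries, 9 of which were C1 libraries with at most 4.01 normalized reads. With only the C2 groups in the limma test the adjusted p was 0.00025, with a pseudocount of 5 in place of 1 it was 0.00063, and edgeR and DESeq2 gave 4.1e-05 and 4.3e-17. The other 5 alternatives did not call it, with adjusted p from 0.053 to 0.49. Hoxa11os, transcribed from the other strand with 800 shared exon bases, had 105 ± 15.5 and 50.8 ± 8.53 normalized reads in C2 WT and dKO cells (SD, n = 3; adjusted p = 0.17, limma).

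Hoxa9 had 4022, 3567 and 3586 normalized reads in the C2 WT libraries and 3295, 2589.5 and 2762 in the C2 dKO libraries. No dKO library reached the lowest WT library, but the log2 change of -0.38 ± 0.18 did not pass the test (SE, adjusted p = 0.11, limma). With only the C2 groups in the test its adjusted p was 0.028, and over the 9 alternatives it ran from there to 0.15. Hoxa3 had 109.5, 115 and 108 normalized reads in C2 WT libraries and 100.4, 45.7 and 69.7 in C2 dKO libraries (adjusted p = 0.07, limma; 0.019 without C2 dKO replicate 1). Without C2 dKO replicate 2 its log2 change was -0.40 (adjusted p = 0.3), against -0.69 with all libraries.

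Hoxa5 had 227, 201 and 191 normalized reads in the C2 WT libraries and 209, 204 and 169 in the C2 dKO libraries (log2 change -0.09, adjusted p = 0.76, limma). Hoxa6 had 45.8, 48.2 and 52.2 against 58.6, 58.3 and 48.3 (log2 change 0.17, adjusted p = 0.54). Meis1 had 952, 982 and 955 against 991, 922 and 916, and the 95% interval of its log2 change ran from -0.19 to 0.13. The groups of all 3 genes overlapped.

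Whether the clones differed in their response was tested by the difference of the log2 changes, C2 minus C1. It was higher for 3 of the 9 members and lower for 0, where 15.1% and 14.3% of all tested genes were called higher and lower (limma). At an unadjusted p under 0.05 the count lower was also 0, and edgeR and DESeq2 gave 3 higher and 0 lower. The rise of Pbx3 was larger in C2, with a log2 difference of 1.80 ± 0.22 (SE, adjusted p = 1.8e-05, limma). Hoxa10 fell less in C2, with a difference of 0.58 ± 0.16 (SE, adjusted p = 0.013, limma). Hoxa7 differed by 0.74 ± 0.18 (SE, adjusted p = 0.0057, limma), since it rose in C2 and had a log2 change of -0.19 in C1. For Hoxa9 the difference was 0.23, with a 95% interval from -0.30 to 0.76, so the data did not settle whether its response differed.

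The reads of the 7 HOXA members together averaged 4061 ± 486 in C1 WT, 2768 ± 268 in C1 dKO, 2481 ± 649 in C1 LAPS, 6952 ± 357 in C2 WT and 5282 ± 597 in C2 dKO libraries (SD, n = 3). Within this sum the share of Hoxa7 was higher and that of Hoxa10 lower in every dKO library than in every WT library of the same clone. Hoxa9 held 56%, 53.7%, 53.7%, 53.6% and 54.5% of it in C1 WT, C1 dKO, C1 LAPS, C2 WT and C2 dKO cells. Hoxa7 held 25.5% ± 0.256 in C1 WT and 32.9% ± 2.4 in C1 dKO cells, and 7.75% ± 0.462 in C2 WT and 15% ± 0.263 in C2 dKO cells (SD, n = 3). Hoxa10 held 14.5% ± 1.12 and 8.65% ± 0.877 in C1, and 23.2% ± 0.504 and 18.6% ± 0.639 in C2. Hoxa11 held 10.3% ± 0.791 of the HOXA reads in C2 WT and 5.73% ± 0.23 in C2 dKO cells.

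A ratio of members within a library does not depend on how libraries are scaled. The ratio of Hoxa10 to Hoxa9 was 0.272, 0.23 and 0.276 in C1 WT and 0.175, 0.154 and 0.153 in C1 dKO libraries, and 0.415, 0.449 and 0.434 in C2 WT and 0.323, 0.35 and 0.352 in C2 dKO libraries. It was lower in every dKO library than in every WT library of its clone. The ratio of Hoxa7 to Hoxa9 was 0.462, 0.448 and 0.456 in C1 WT and 0.546, 0.629 and 0.662 in C1 dKO libraries, and 0.149, 0.137 and 0.148 in C2 WT and 0.269, 0.276 and 0.284 in C2 dKO libraries. It was higher in every dKO library of its clone. The 4 comparisons each gave p = 0.10 in a two-sided exact permutation test over 3 against 3 libraries, which is the smallest p that this design allows. These ratios were chosen after the values had been seen.

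**Figure D4:**
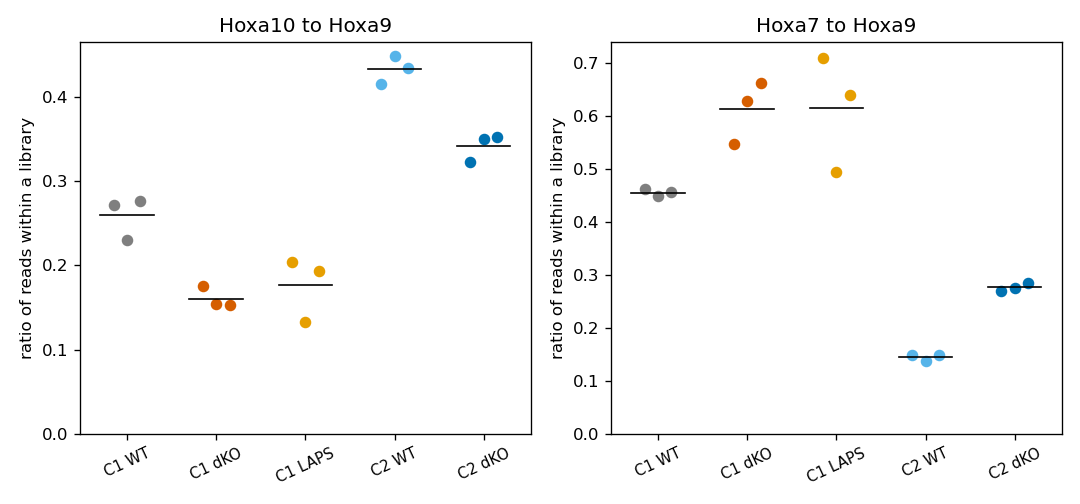
Ratio of Hoxa10 to Hoxa9 reads (left) and of Hoxa7 to Hoxa9 reads (right) within each library (y, linear scale) by group (x). Points are libraries and lines are means. In both clones the dKO points lie below the WT points on the left and above them on the right, and the C1 LAPS points, 0.133 to 0.204 on the left, overlap the C1 dKO points.

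Hoxa10, Hoxa9 and Pbx3 in C1 LAPS cells, which carry LAP*, lay near the C1 dKO libraries, and Meis1 lay near the C1 WT libraries. In C1 LAPS against C1 dKO cells limma called 0 of the 9 members, where 1.43% of all tested genes were called higher and 3.03% lower. At an unadjusted p under 0.05 there were 1 higher (Meis1) and 1 lower (Hoxa5), and edgeR and DESeq2 called 0. The members' median log2 difference was -0.18 and that of all tested genes 0.00. These comparisons share the C1 dKO libraries with those of dKO against WT cells.

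Hoxa10 had 219, 253 and 209 normalized reads in the C1 LAPS libraries, overlapping the C1 dKO libraries and below all C1 WT libraries. Its log2 difference from dKO cells was -0.07, with a 95% interval from -0.31 to 0.17, where the log2 change from WT to dKO cells had been -1.29. Hoxa9 had 1076, 1899.8 and 1079.7 normalized reads in C1 LAPS libraries, with replicate 2 apart from the others and just below the lowest C1 WT library. Its log2 difference from dKO cells was -0.19, with an interval from -0.56 to 0.19. Without that replicate it was -0.46 (adjusted p = 0.076, limma). Pbx3 had 147, 134 and 143 normalized reads, all just below the C1 dKO libraries, with a log2 difference of -0.18 (interval from -0.50 to 0.15, adjusted p = 0.61, limma).

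Meis1 had 989, 1161 and 1135 normalized reads in C1 LAPS libraries, all above the C1 dKO libraries and around the C1 WT mean of 1093. Its log2 difference from dKO cells was 0.21 (interval from 0.05 to 0.37, adjusted p = 0.13, limma), and without C1 LAPS replicate 1 the adjusted p was 0.049. Its log2 difference from WT cells was 0.00, with an interval from -0.16 to 0.16. Hoxa5 had 48.8, 83 and 48.3 normalized reads in C1 LAPS libraries, against 95.1, 73.4 and 72.4 in C1 dKO libraries (log2 difference -0.45, adjusted p = 0.25, limma). Hoxa7 had 764, 938 and 690.3, Hoxa3 had 23.4, 22.1 and 16.4 and Hoxa6 had 17.3, 28.6 and 20.1 normalized reads in C1 LAPS libraries, each overlapping the C1 dKO libraries. Hoxa11 had 6 reads in the 3 libraries together.

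Against C1 WT cells, 1 member was higher and 5 were lower in C1 LAPS cells, where 14.2% of all tested genes were called higher and 18.3% lower. Pbx3 was higher, with a log2 difference of 0.69 (adjusted p = 0.0025, limma). Hoxa10 was lower at -1.37 (adjusted p = 1.6e-07), Hoxa9 at -0.80 (0.0024), Hoxa3 at -0.79 (0.045), Hoxa5 at -0.69 (0.014) and Hoxa7 at -0.38 (0.032). Of these 5, edgeR and DESeq2 called 4 each and limma with only the groups compared called 2. Without C1 WT replicate 1 or 2 or C1 LAPS replicate 1 or 3 limma called 2, 3, 2 and 2 lower. The call of Hoxa3 was lost in 5 of the 9 alternatives, with adjusted p from 0.053 to 0.078, and without any 1 library except C1 WT replicate 3. That of Hoxa7, whose groups overlapped, was lost in 2 alternatives (0.088 with quantile normalization and 0.1 with only the groups compared) and without any of the 4 libraries just named. That of Hoxa5 was lost with only the groups compared (0.1) and without C1 WT replicate 1 or C1 LAPS replicate 1 or 3 (0.066 to 0.072). The rise of Pbx3 and the fall of Hoxa10 held in all 9 alternatives.

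The clones differed in the HOXA cluster before the deletion. In C2 WT against C1 WT cells 7 of the 9 members were higher and 1 was lower, where 19.7% of all tested genes were called higher and 21.3% lower. The members' median log2 difference was 0.83, that of all tested genes -0.01. Hoxa11 was near the floor in C1 WT cells, at 4.01, 3.61 and 0 normalized reads, and at 690.1 to 733 in C2 WT cells. Its mean was 280.4 times as high, a ratio that rests on 7 reads in C1. Hoxa10 was 2.74, Hoxa3 3.02, Hoxa5 2.16, Hoxa6 1.81 and Hoxa9 1.64 times as high in C2 WT cells, with adjusted p from 4.8e-08 to 0.004. Pbx3 was 1.42 times as high (adjusted p = 0.021), with overlapping groups, and its call was lost without C1 WT replicate 1 (0.083) or without C2 WT replicate 2 (0.12) or 3 (0.078), and with only the groups compared (0.13). Hoxa7 went the other way, with a C2 mean of 0.52 times the C1 mean (log2 difference -0.94, adjusted p = 2.2e-05, limma). Meis1 had a log2 difference of -0.18 (adjusted p = 0.067; 0.045 without C1 WT replicate 3).

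After the deletion 7 members were higher in C2 dKO than in C1 dKO cells and 0 lower by limma, edgeR or DESeq2, with 22.8% of all tested genes called higher and 24.9% lower by limma. None was lower at an unadjusted p under 0.05 either. The difference in Hoxa7 seen between the WT lines was smaller here, at 795 ± 86.2 in C2 dKO and 908 ± 95.8 normalized reads in C1 dKO cells (SD, n = 3; adjusted p = 0.24, limma). Meis1, at 943 and 944 normalized reads, had a log2 difference whose 95% interval ran from -0.16 to 0.16. Pbx3 was 4.86 and Hoxa10 4.09 times as high in C2 dKO cells.

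Ordering the 5 groups by mean level gave C2 WT, C2 dKO, C1 WT, C1 dKO and C1 LAPS for Hoxa3, Hoxa5, Hoxa9 and Hoxa10. Within this order the neighbours C1 dKO and C1 LAPS overlapped for all 4 genes, and C1 WT and C1 dKO overlapped for Hoxa3 and Hoxa5. C2 WT and C2 dKO overlapped for Hoxa5 alone. For Hoxa7 the order was C1 WT, C1 dKO, C1 LAPS, C2 dKO and C2 WT, in which only C2 dKO and C2 WT did not overlap. Hoxa6 had C2 dKO, C2 WT, C1 WT, C1 dKO and C1 LAPS in order, with a gap between the clones alone. For Meis1, C1 LAPS and C1 WT cells came first and overlapped each other. C2 WT, C1 dKO and C2 dKO cells followed and overlapped as neighbours, and the lowest C1 LAPS library (989) lay just below the highest C2 dKO library (991). For Pbx3, C2 dKO cells stood apart and C1 dKO cells came next, without overlap with C1 LAPS cells.

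Other genes of the HOXA cluster were low. Hoxa2 had 6.92 ± 2.2 and 4.59 ± 1.43 normalized reads in C1 WT and dKO cells, and 20.4 ± 2.63 and 14.4 ± 1.04 in C2 (SD, n = 3), and it was not called in dKO against WT cells of either clone (adjusted p = 0.27 and 0.29, limma). It was higher in C2 WT than in C1 WT cells (adjusted p = 0.0025, limma). Hoxa4 averaged 1.72 to 7.56 normalized reads in the 5 groups and did not pass the filter. Hoxa13, the last gene of the cluster, was listed at 0 in every library.

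Among the 7 noncoding genes of the cluster 3 were tested. Hoxaas3, an antisense RNA that shares exon bases with Hoxa3 and Hoxa7, had 6.79 ± 2.33 normalized reads in C1 WT, 41.1 ± 6.7 in C1 dKO and 60.4 ± 7.86 in C1 LAPS cells (SD, n = 3). It rose in C1 dKO cells (log2 change 2.47, adjusted p = 0.002, limma), and it was at 2.61 and 2.83 in C2 WT and dKO cells. The difference between the clones was -2.95 on the log2 scale (adjusted p = 0.0085, limma), which DESeq2 also called and edgeR did not. Hotairm1, another noncoding RNA, had 6.87, 8.51, 14.7 and 15.8 normalized reads in C1 WT, C1 dKO, C2 WT and C2 dKO cells and was not called in either clone. Hoxa11os followed Hoxa11, with 1.8 normalized reads in C1 WT and 105 in C2 WT cells (adjusted p = 1.3e-06, limma). edgeR and DESeq2 called 1 of the 3 lower in C2 dKO cells, where limma called 0 of them and 20.1% of all tested genes lower.

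Of the relatives of Meis1 and Pbx3, 8 other TALE genes are described. In C1 dKO cells 3 were called higher and 2 lower (1 lower by edgeR and by DESeq2), against 17.1% and 19.9% of all tested genes. In C2 dKO cells limma, edgeR and DESeq2 called 0 higher and 3 lower, and 1 was higher at an unadjusted p under 0.05. Of all tested genes limma called 17.4% higher and 20.1% lower there. The difference between the clones was called higher for 0 and lower for 4 of the 8, and lower for 2 and 3 by edgeR and DESeq2. Of all tested genes limma called 15.1% higher and 14.3% lower for this difference. The median log2 change of these 8 was 0.18 in C1 and 0.03 in C2.

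Meis2, the close relative of Meis1, had 1.28 ± 1.11 normalized reads in C1 WT, 49 ± 6.6 in C1 dKO and 60.8 ± 5.86 in C1 LAPS cells (SD, n = 3), and was listed at 0 in all C2 libraries. Its log2 change in C1 was 4.61 (adjusted p = 1.6e-07, limma). Tgif2, a TALE repressor, had 9.11 and 36.7 normalized reads in C1 WT and dKO cells (adjusted p = 1.4e-05) and 45.2 and 47 in C2 (adjusted p = 0.88). Pbx4 rose from 0.747 to 6.63 in C1 (adjusted p = 0.0015) and had 17.2 and 23.6 in C2 (adjusted p = 0.54). Its C1 values lay near the floor, at 0 to 1.34 in WT and 3.4 to 9.44 in dKO libraries. The call of Pbx4 as higher in C1 thus rests on few reads.

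Meis3 fell in both clones, from 10.7 to 3.06 in C1 and from 24.5 to 6.58 in C2, with a log2 change of -1.80 and an adjusted p of 0.026 in each. In C1 it lay near the floor, at 6.69 to 17.1 in WT and 0 to 5.66 in dKO libraries. Pbx2, another PBX gene, fell from 857 to 737 in C1 (adjusted p = 0.045) and from 687 to 575 in C2 (adjusted p = 0.02). Meis3 and Pbx2 were the 2 called lower in C1 by limma, where edgeR and DESeq2 called 1 lower. Pknox1, a TALE partner of PBX proteins, had 901 and 896 normalized reads in C1 (adjusted p = 0.95) and fell from 898 to 620.3 in C2 (adjusted p = 5.7e-05). Pknox2 and Tgif1 were not called in either clone, with 15.2 and 20.3 normalized reads in C1 WT and dKO cells for Pknox2 and 283 and 383 in C2 WT and dKO cells for Tgif1 (adjusted p = 0.078). In LAPS against dKO cells limma, edgeR and DESeq2 called 0 of the 8, and 3 were lower at an unadjusted p under 0.05. Of all tested genes limma called 1.43% higher and 3.03% lower there.

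**Figure D5:**
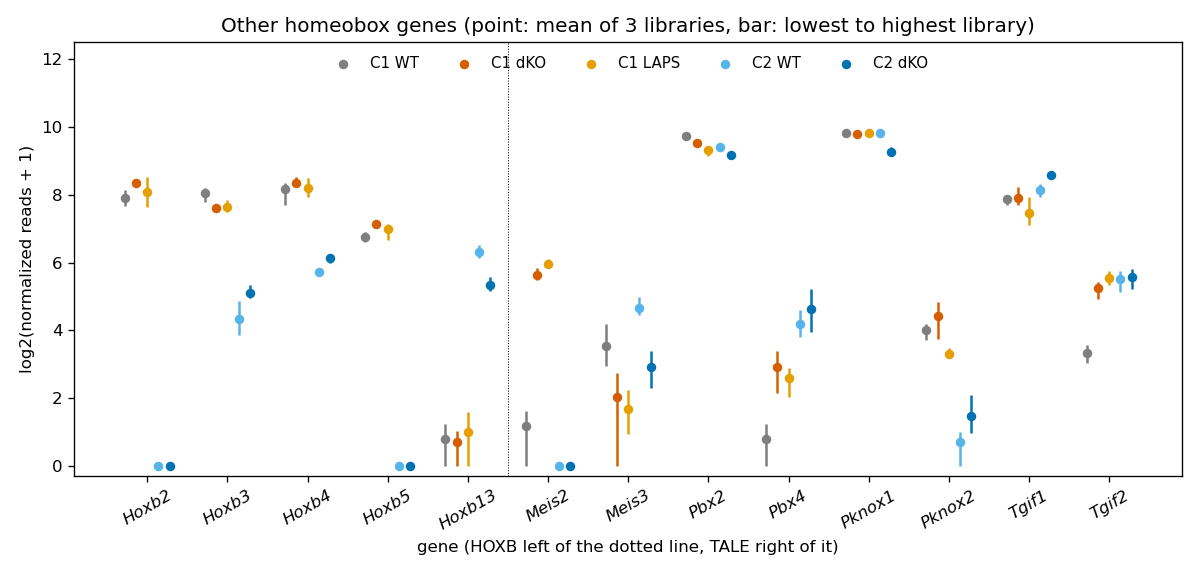
Log2(normalized reads + 1) (y) of the 5 tested HOXB genes and 8 other TALE genes (x) in the 5 groups. Points are means of 3 libraries and bars run from the lowest to the highest library. Hoxb2 and Hoxb5 are at 0 in C2 and at 108 to 328 normalized reads on average in C1 WT and dKO cells, and Meis2 is high in C1 dKO and C1 LAPS cells alone.

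Of the 10 HOXB genes 5 were tested, and in C2 WT against C1 WT cells 1 was higher and 4 were lower, where 19.7% of all tested genes were called higher and 21.3% lower. Hoxb2 had 239 ± 40.9 normalized reads in C1 WT and 328 ± 22.1 in C1 dKO cells (SD, n = 3) and 0 in every C2 library, at least 80.9-fold lower in C2 WT than in C1 WT cells against a floor of 3 reads per library. Hoxb5 had 108 and 139.7 in C1 WT and dKO cells and 0 in C2, at least 36.6-fold lower in C2 WT cells. Hoxb3 and Hoxb4, which are active in blood stem cells, had 264 and 286 normalized reads in C1 WT and 19 and 51.5 in C2 WT cells, with log2 differences of -3.78 and -2.42. Hoxb13, the most posterior HOXB gene, was reversed, with 0.747 in C1 WT and 78.9 in C2 WT cells (log2 difference 5.59, adjusted p = 5.4e-08, limma). In dKO against WT cells limma called 0 of the 5 in C1 (17.1% of all tested genes were called higher and 19.9% lower), with 0 at an unadjusted p under 0.05, 0 by edgeR and 1 by DESeq2. In C2 (17.4% and 20.1% of all tested genes) it called Hoxb3 higher, from 19 to 33.3 (adjusted p = 0.0074), and 0 lower, with 1 lower at an unadjusted p under 0.05 and 1 each by edgeR and DESeq2. Hoxb13 had 78.9 and 39.2 normalized reads in C2 WT and dKO cells (adjusted p = 0.09, limma). In LAPS against dKO cells, where limma called 1.43% of all tested genes higher and 3.03% lower, limma, edgeR and DESeq2 called 0 of the 5, and 0 passed at an unadjusted p under 0.05. The 9 HOXC genes, the 9 HOXD genes and the 3 CDX genes, which act upstream of HOX genes in the embryo, were listed at 0 in every library.

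Known targets of HOXA9 and MEIS1 in myeloid progenitors moved in both directions. Of 14 listed genes 13 were tested, and 7 rose and 6 fell in C1 dKO cells, while 6 rose and 1 fell in C2 dKO cells. Of all tested genes 17.1% rose and 19.9% fell in C1, and 17.4% rose and 20.1% fell in C2. The median log2 change was 0.52 in C1 and 0.18 in C2, against -0.01 and -0.03 over all tested genes. The list was drawn up with earlier results of these data known. Cd34, a surface marker of stem and progenitor cells, had 5.21 ± 2.08 normalized reads in C1 WT and 2623 ± 199 in C1 dKO cells, and 1.01 ± 1.05 and 6365 ± 543 in C2 (SD, n = 3; adjusted p = 9.1e-12 and 3.1e-13, limma). Flt3, a receptor kinase of early progenitors, was at 0 in all C1 WT libraries and at 62.2 in C1 dKO cells, at least 19.1-fold higher, and went from 0.307 to 304 in C2. Igf1, a growth factor, fell from 23.2 to 0.727 in C1 (adjusted p = 1.5e-05) and had 0.61 and 0.323 in C2. Hif1a, the hypoxia factor, fell from 3675 to 2692 in C1 (adjusted p = 0.018) and from 3932 to 2669.8 in C2 (adjusted p = 0.0036). In LAPS against dKO cells limma called 1 of the 13, Syk, a signalling kinase, which was lower (adjusted p = 0.036). Of all tested genes 1.43% were called higher and 3.03% lower there.

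Genes whose levels ran most like those of Hoxa9, Hoxa10 and Meis1 over the 15 libraries were sought by Pearson's r of log2(normalized reads + 1). The libraries share clones and genotypes, so these are descriptions. Most like Hoxa9 were Adss (r = 0.967), Osm, Spred1, Serinc5 and Ptpn21, the last at 0.952. Most like Hoxa10 were Pimreg (r = 0.987), Snhg11, Ptpn21, Armcx3 and Afp, the last at 0.981. Snhg11 had 143 normalized reads in C1 WT, 11.3 in C1 dKO, 1121 in C2 WT and 728 in C2 dKO cells. Most like Meis1 were Ccdc50 (r = 0.890), Pggt1b, Zhx1, Mfap1a and Chd1, the last at 0.838. Meis1 itself ran from 900.0 to 1173 normalized reads over all libraries, a narrow range for a correlation.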

How the data were processed

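RNA-seq of 15 libraries (5 groups of 3, taken from the labels) was analysed. The authors aligned stranded paired-end reads to mm10 (STAR 2.5.3a), counted them per gene (HTSeq 0.10.0) and divided counts by library size factors (DESeq2 1.26.0). They deposited these normalized read counts, a signal whose values lay in 100% of cases up to 100 reads within 0.1 of a whole read, so reads were recovered. The 5 entries naming no gene (22.4% to 26.2% of reads) and 3 columns not matched to a sample were left out.

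The main test was limma 3.58.1 (R 4.3.3, trended prior) on log2(normalized reads + 1), with a mean for each group and all 15 libraries sharing the spread. It covered 12673 genes that reached 10 normalized reads in 3 or more libraries. Calls are two-sided, at a Benjamini-Hochberg adjusted p under 0.05 over all of these. Alternatives were pseudocounts of 0.1 and 5, no filter, quantile or TMM scaling, only the groups compared, a replicate block, edgeR 4.0.16, DESeq2 1.42.0 and leaving out each library. On simulated data for C1 dKO against C1 WT cells (12367 genes), limma called 75% of genes changed by 1 and 98% of those changed by 2 on the log2 scale. Only 100 genes were changed by each amount, a smaller share than was called in these data. The rates may therefore differ from those here. The floor of 3 reads per library covers counting error only.

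Members and gene lists were chosen with earlier results of these data known. Named by rule were all members, tested genes of the other HOXA, TALE and HOXB, HOXC and HOXD lists (some are not reported here), the 2 called targets with the largest rise and the 2 with the largest fall by mean of the clones, and the 5 genes most like Hoxa9, Hoxa10 and Meis1. Noncoding genes, Syk, marker genes and ratios were named after their values had been seen.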

Additional observations from a re-analysis of the deposited data

Results flagged for a closer look

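The response to the loss of Cebpa and Cebpb differed between the clones for 3 of the 9 members, by the interaction term of the limma fit over all 15 libraries. Of all tested genes 15.1% were called higher and 14.3% lower by this term. The difference of the log2 changes, C2 minus C1, was 1.80 for Pbx3 (adjusted p = 1.8e-05), 0.74 for Hoxa7 (adjusted p = 0.0057) and 0.58 for Hoxa10 (adjusted p = 0.013). For each of these 3, the call held in all 9 alternatives. Each clone stands for 1 surviving dKO line, so a difference between clones and a difference between such lines cannot be told apart.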

How the results depend on the processing

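Over 9 alternatives, 538 member results kept their direction and call, 16 lost the call, 6 gained it and 7 reversed, none of them called. With C1 dKO against C1 WT cells, members called lower (3) became 2 in all of these alternatives except the pseudocounts, where Meis1 kept its call. With C2 dKO against C2 WT cells, members called lower (1) became 2 with a pseudocount of 5, with edgeR and with DESeq2, and 3 with only the groups compared. The clone difference had 1 member lower in place of 0 with a pseudocount of 5, and C1 LAPS against WT cells had 2 lower in place of 5 with only the groups compared. Leaving out each library gave 1 to 3 members lower for dKO against WT in C1, 1 to 2 in C2, 0 to 1 higher for LAPS against dKO, 2 to 5 lower for LAPS against WT and 1 to 2 lower for C2 WT against C1 WT. The cause was not tested.

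Reversed log2 differences were the clone difference of Hoxa3 (0.07, quantile normalization), Hoxa11 with a pseudocount of 0.1 (0.27 for dKO against WT in C1, -0.57 for LAPS against dKO), and Meis1 for dKO against WT in C2 (0.00, TMM scaling) and for C2 dKO against C1 dKO (0.01 with TMM scaling, edgeR and DESeq2). Leaving out a library also turned the sign of these values: Hoxa3 clone difference (-0.41 to 0.15), Hoxa5 dKO against WT in C2 (-0.15 to 0.00), Hoxa10 LAPS against dKO (-0.20 to 0.02), Hoxa11 dKO against WT in C1 (-1.05 to 0.11), LAPS against dKO (-0.41 to 0.70) and LAPS against WT (-0.99 to 0.40), and Meis1 LAPS against WT (-0.04 to 0.07) and dKO against dKO (-0.04 to 0.02).

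Replicate numbers showed no clear pairing of the samples, which these values do not settle. Same-numbered correlations ran from -0.174 to 0.297 and those of differently numbered libraries from -0.252 to 0.207. With the replicate block, genes called in C1 dKO against WT cells were 2108 higher and 2449 lower in place of 2170 and 2516, and Meis1 in C1 had an adjusted p of 0.057. Quantile normalization gave 2681 higher and 2052 lower there, and 2521 and 1910 in place of 1796 and 2322 for C1 LAPS against WT cells. Genes higher in LAPS against dKO cells were 181, or 86 with only the groups compared. Hoxa11 in C1, at 7 or fewer reads per group, is below what this depth can compare.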
